A study of Homo sapiens with 9 samples.

Results

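The INK4-ARF locus on the short arm of chromosome 9 carries the tumour suppressor genes CDKN2A and CDKN2B. Its DNA contacts were examined here in growing IMR90 fibroblasts and in the same line after oncogenic RAS-induced senescence (RIS). The genes described are 4 of the 20090 protein-coding genes of the annotation. They were chosen by position and not by any measured value, although earlier results of these data were known. They are CDKN2A, CDKN2B, their upstream neighbour MTAP and the next protein-coding gene downstream, DMRTA1. All 4 lie in a window of 49 bins of 40 kb on chromosome 9 (chr9:21520001-23480000, hg19), out of 69621 bins measured in the genome.

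IMR90 is an established line of human diploid lung fibroblasts. All cells carried ER:HRAS(G12V), an oncogenic HRAS fused to an oestrogen receptor domain, which becomes active when the ligand 4-hydroxytamoxifen (4OHT) is added. Growing cells received no 4OHT, and RIS cells received 100 nM 4OHT for 6 days. Hi-C ligates DNA ends that lie close together in the nucleus and counts the joined pairs over the whole genome, and it gave 3 growing and 2 RIS libraries. Capture Hi-C (cHi-C) enriches such pairs from chosen regions and gave 2 growing and 2 RIS libraries. Values per library are given in the order of the replicate numbers, growing before RIS. By its label growing Hi-C replicate 3 also carried an MSCV vector, and it was kept as a growing library. The study calls its replicates biological, but the labels do not say whether they came from separate cultures. The p-values therefore measure the spread between these libraries. Both groups carry the same construct and differ in 4OHT, so the ligand and the oncogene it switches on cannot be told apart. The assay reads DNA contacts and holds no RNA, so neither the cell type nor the expression of the 4 genes was examined.

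CDKN2A makes a pair of unrelated proteins from a shared body and separate promoters. p16INK4a binds the cyclin D kinases CDK4 and CDK6 and keeps RB active, and ARF binds and inhibits the ubiquitin ligase MDM2. CDKN2B makes p15INK4b, another inhibitor of the same kinases, and both genes are silenced by Polycomb complexes in young cells and are best known as barriers that hold senescent fibroblasts out of the cell cycle. MTAP makes a methionine salvage enzyme and is often deleted with CDKN2A in tumours, and DMRTA1 makes a DM-domain transcription factor. The long noncoding RNA CDKN2B-AS1, also known as ANRIL, starts next to the ARF promoter and runs antisense through CDKN2B into the gene desert that lies before DMRTA1.

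In the GRCh37 annotation MTAP occupies chr9:21802635-21937650 on the plus strand, CDKN2A chr9:21967751-21995300 and CDKN2B chr9:22002902-22009304 on the minus strand, CDKN2B-AS1 chr9:21994138-22128102 and DMRTA1 chr9:22446823-22455739 on the plus strand. For the comparisons the window was cut along the 40 kb bins into an upstream part of 7 bins before MTAP, 2 bins of MTAP, 2 bins between MTAP and CDKN2A that still hold the end of the longest MTAP transcript, 1 bin each for CDKN2A and CDKN2B, 2 bins for the rest of CDKN2B-AS1, a proximal desert of 8 bins, 1 bin of DMRTA1 and a distal desert of 25 bins. The upstream part also holds MIR31HG, SNORD39 and the pseudogenes H3P30, KHSRPP1 and RN7SL151P. The MTAP bins hold TUBB8P1, the bins between MTAP and CDKN2A hold ERVFRD-3, CDKN2A-DT and UBA52P6 lie beside CDKN2A and CDKN2B, and the distal desert holds LINC01239 and CLIC4P1, besides transcripts without a symbol.

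Capture Hi-C viewpoints were the 10 kb bins that hold the starts of p16INK4a (chr9:21970001-21980000), ARF (chr9:21990001-22000000), CDKN2B (chr9:22000001-22010000) and MTAP (chr9:21800001-21810000). The 250 bases before each of these starts, read 5′ to 3′ on the gene's strand from the hg19 reference, are printed because these are the promoters whose contacts are compared, and CG dinucleotides are in capitals.
p16INK4a promoter: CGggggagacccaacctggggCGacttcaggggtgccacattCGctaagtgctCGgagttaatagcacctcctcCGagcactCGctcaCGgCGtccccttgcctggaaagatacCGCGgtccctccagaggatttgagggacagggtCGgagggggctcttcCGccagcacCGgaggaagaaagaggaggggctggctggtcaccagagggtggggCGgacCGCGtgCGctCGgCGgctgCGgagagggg
ARF promoter: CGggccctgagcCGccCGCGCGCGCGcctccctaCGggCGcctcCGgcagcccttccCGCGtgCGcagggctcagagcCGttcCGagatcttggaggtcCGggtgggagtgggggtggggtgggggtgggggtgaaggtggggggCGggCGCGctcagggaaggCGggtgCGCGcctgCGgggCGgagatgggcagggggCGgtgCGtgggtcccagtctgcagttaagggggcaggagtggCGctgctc
CDKN2B promoter: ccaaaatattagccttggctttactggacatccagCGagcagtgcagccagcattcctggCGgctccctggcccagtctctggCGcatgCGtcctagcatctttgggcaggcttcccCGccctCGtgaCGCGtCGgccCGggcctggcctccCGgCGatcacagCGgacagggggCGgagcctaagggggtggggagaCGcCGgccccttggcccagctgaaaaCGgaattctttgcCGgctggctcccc
MTAP promoter: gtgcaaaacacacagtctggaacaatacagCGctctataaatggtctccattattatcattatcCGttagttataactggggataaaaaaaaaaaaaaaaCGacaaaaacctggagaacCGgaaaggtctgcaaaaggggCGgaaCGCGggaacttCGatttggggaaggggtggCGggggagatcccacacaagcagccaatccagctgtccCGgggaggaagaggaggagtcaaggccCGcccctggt
The p16INK4a promoter is at chr9:21974857-21975106 on the minus strand and holds 20 CG dinucleotides. The ARF promoter is at chr9:21994392-21994641 on the same strand and holds 27. Both lie before the start of a chosen transcript and inside the annotated span of CDKN2A. The CDKN2B promoter, at chr9:22009305-22009554 on the minus strand, holds 18, and the MTAP promoter, at chr9:21802385-21802634 on the plus strand, holds 11. The median over 799 promoters of chromosome 9 was 16, and 38.8%, 22.4%, 45.3% and 61.8% of them held at least as many as p16INK4a, ARF, CDKN2B and MTAP. Those 799 were taken before gene starts, so the p16INK4a and ARF stretches are not quite alike to them. The DMRTA1 promoter held 13. The promoters of CDKN2A and CDKN2B are thus above the chromosome's median and those of MTAP and DMRTA1 below it.

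Sequencing depth was recovered by dividing the balanced values by 1 factor per bin, which returned whole contacts. Growing Hi-C libraries held 154318992, 175410468 and 180775315 contacts, and RIS libraries held 109967509 and 150689993. The cHi-C libraries held 171721507 and 149300255 contacts in growing and 99770980 and 69076299 in RIS cells. Of the balanced signal between bins of the same captured region, 0.965%, 0.975%, 0.945% and 0.934% fell within the captured part of the locus. RIS libraries were shallower in both assays. The share of contacts with other chromosomes was also higher in RIS Hi-C, with a median over all bins of 9.86% to 10.3% in growing and 12.8% to 12.9% in RIS libraries. In the CDKN2A bin that share came to 11.5%, 12.7% and 12.4% in growing against 17.2% and 16.2% in RIS libraries. In the CDKN2B bin it was 10.9%, 11.1% and 11.04% against 15.6% and 14.5%. Both bins moved in the same direction as the median of all bins, and the part of depth and of these shares in the results that follow was not tested.

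The first question is where CDKN2A and CDKN2B touch their neighbours. Contact is given as observed over expected (O/E), the expected value being the mean balanced contact at the same distance on the same chromosome, so that a value of 1, or 0 on the log2 scale, is the average for that distance. Outside its immediate neighbours, the CDKN2B bin made its strongest contact of the window, by the mean of either group, with the bin of the MTAP start, chr9:21800001-21840000. The O/E of that pair reached 3.92, 4.14 and 4.14 in growing against 3.57 and 3.83 in RIS libraries. The CDKN2A bin had the same partner, with an O/E of 3.17, 3.19 and 3.77 in growing and 3.12 and 3.85 in RIS libraries. The next partner of both genes by group mean was the proximal desert bin chr9:22200001-22240000, although in single libraries the order could turn. There the CDKN2B bin had an O/E of 3.33, 3.42 and 3.61 in growing and 2.88 and 4.31 in RIS libraries, and the CDKN2A bin 3.47, 2.45 and 2.82 against 2.94 and 2.49. Both RIS libraries were below every growing library for CDKN2B with the MTAP start, and the groups overlapped in the other 3 pairs. The CDKN2A and CDKN2B bins, although adjacent, met less often than the chromosome's average for adjacent bins, with an O/E of 0.695, 0.782 and 0.673 in growing and 0.720 and 0.612 in RIS libraries.

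The parts of the locus were then compared as blocks of bin pairs, each fitted with limma together with every position of the genome where the same layout of bins could be measured. CDKN2A and CDKN2B with MTAP had a log2 O/E of 1.36, 1.37 and 1.43 in growing and 1.40 and 1.51 in RIS libraries. The groups overlapped, and RIS exceeded growing by 0.07 ± 0.080 (SE, limma adjusted p = 0.588). With the proximal desert the values were 0.40, 0.34 and 0.43 against 0.44 and 0.52, a difference of 0.09 ± 0.061 (SE, limma adjusted p = 0.289). Here the groups did not overlap, but the interval between the highest growing and the lowest RIS library was small. With recovered contacts both differences turned direction, to -0.033 with MTAP and -0.017 with the proximal desert. With the part of CDKN2B-AS1 beyond CDKN2B, growing libraries had 0.57, 0.60 and 0.64 and RIS libraries 0.42 and 0.41. Every RIS library was below every growing library, by 0.18 ± 0.057 on average (SE, limma adjusted p = 0.0533), which missed the threshold of 0.05.

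Contacts of CDKN2A and CDKN2B that leave the MTAP to DMRTA1 interval were, as block means, below the average for their distance, although single bins could lie above it. With the distal desert the log2 O/E came to -1.36, -1.34 and -1.54 in growing against -1.59 and -1.75 in RIS libraries. RIS libraries were the lowest, by a difference of -0.26 ± 0.096 (SE, limma adjusted p = 0.0927). With the upstream part the values were -0.45, -0.44 and -0.52 against -0.54 and -0.62, a difference of -0.11 ± 0.067 (SE, limma adjusted p = 0.264). With the interferon gene cluster further upstream, at chr9:21040001-21520000, they were -0.37, -0.38 and -0.45 against -0.26 and -0.18, a difference of 0.18 ± 0.080 in the opposite direction (SE, limma adjusted p = 0.161). None of these 3 differences passed the test, although the groups did not overlap in any of them. The pair CDKN2A with CDKN2B itself had -0.52, -0.36 and -0.57 in growing and -0.47 and -0.71 in RIS libraries, and its difference of -0.11 ± 0.098 (SE, limma adjusted p = 0.513) became 0.01 without RIS replicate 2.

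DMRTA1, which lies 440 kb from the CDKN2B bin, was reached by few ligation products. Its bin shared 33, 25 and 42 contacts with the CDKN2A and CDKN2B bins in growing and 29 and 32 in RIS libraries. The log2 O/E was 0.55, 0.17 and 0.77 against 1.03 and 0.72, and the groups overlapped, with a difference of 0.38 ± 0.24 (SE, limma adjusted p = 0.504). MTAP with DMRTA1 had 1.72, 1.80 and 1.62 in growing and 1.18 and 1.59 in RIS libraries, with no overlap and a difference of -0.33 ± 0.22 (SE, limma adjusted p = 0.549). Contacts between the MTAP and DMRTA1 ends of the interval thus stood at 3.28 times the average for their distance in growing and 2.61 times in RIS cells, and neither DMRTA1 difference passed the test.

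**Figure D1:**
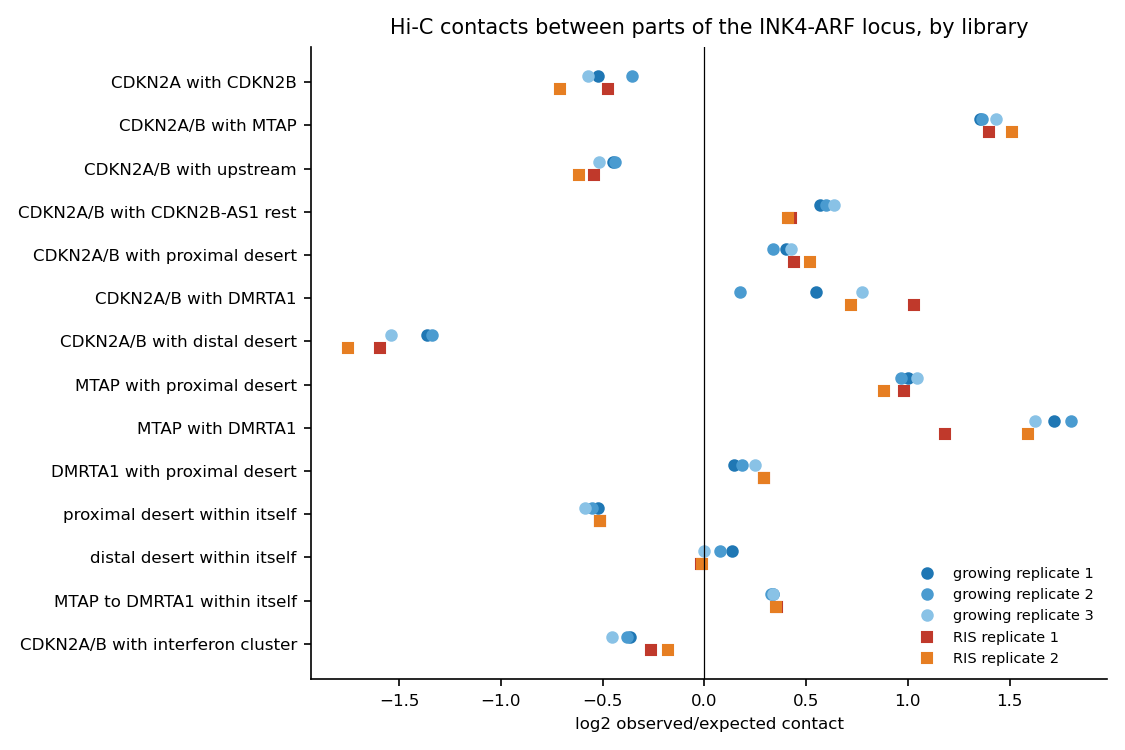
Mean observed over expected contact (log2, horizontal axis) of 14 pairs of parts of the INK4-ARF locus in Hi-C, 1 symbol per library, circles for 3 growing and squares for 2 RIS libraries. MTAP with CDKN2A/B and MTAP with DMRTA1 lie above 1 and CDKN2A/B with the distal desert below -1 in all 5 libraries, while the 2 groups lie close together in most pairs.

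In total 0 of the 14 blocks passed limma at an adjusted p of 0.05, whereas 22.7% of all positions of the genome did over the same layouts. In 10 of the 14 the libraries of the groups did not overlap, a share to be read against 54.3% of positions in the genome. The remaining blocks moved little: DMRTA1 with the proximal desert from 0.19 ± 0.051 (SD, n = 3) to 0.29 ± 0.00056 (SD, n = 2), the proximal desert within itself from -0.56 ± 0.033 to -0.51 ± 0.0011 (SD, n = 3 and n = 2), and the whole MTAP to DMRTA1 interval from 0.33 ± 0.0047 to 0.35 ± 0.0014 (SD, n = 3 and n = 2), each on the log2 scale. MTAP with the proximal desert went from 1.00 ± 0.041 (SD, n = 3) to 0.93 ± 0.069 (SD, n = 2). The distal desert within itself had 0.14, 0.08 and -0.0035 in growing and -0.02 and -0.01 in RIS libraries, a difference of -0.08 ± 0.036 (SE, limma adjusted p = 0.0658). This last difference passed without growing replicate 3, at -0.12 (limma adjusted p = 0.0038), and for the median over the block, at -0.15 (limma adjusted p = 0.012). The median also moved the proximal desert within itself to 0.33 higher in RIS (limma adjusted p = 0.0066). It turned the direction of MTAP with the proximal desert (0.13), of DMRTA1 with it (-0.025) and of the whole interval (-0.030), which was -0.041 with recovered contacts.

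Single pairs of 40 kb bins were then read from a fit over the genome. Of 767 pairs within the window, limma on log2 balanced values called 0, against 0.0452% of pairs in the genome, and 50 had an unadjusted p under 0.05. limma-voom on the recovered contacts, an alternative that uses the depth of each library, called 10 (6 higher and 4 lower in RIS, or 1.30%), against 1.24% of all pairs, so that the window's share was near that of the genome. None of the 10 had CDKN2A or CDKN2B at an end. The MTAP start bin with the proximal desert bin chr9:22240001-22280000 had 186, 209 and 251 contacts in growing and 99 and 122 in RIS libraries, a log2 change of -0.55 ± 0.13 relative to depth (SE, voom adjusted p = 0.012). The next MTAP bin with the same desert bin had 149, 182 and 177 against 82 and 91, a change of -0.56 ± 0.14 (SE, voom adjusted p = 0.024). This desert bin thereby had fewer contacts with both MTAP bins under voom, and it gained contact within the desert, with 89, 74 and 95 contacts in growing and 92 and 104 in RIS libraries to the bin at chr9:22120001-22160000 (0.62 ± 0.15, SE, voom adjusted p = 0.020). Its contacts with CDKN2A (-0.06, voom adjusted p = 0.913) and CDKN2B (-0.11, voom adjusted p = 0.805) did not pass. Without 1 library at a time voom called 2, 5, 10, 1 and 0 pairs, the last without RIS replicate 2, so the count depended on single libraries.

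Capture Hi-C resolved the locus at 10 kb from MTAP to the first part of the desert (chr9:21800001-22280000, 46 of 48 bins measured), and DMRTA1 was outside the captured region. At 10 kb the bins between MTAP and CDKN2A are those of chr9:21870001-21960000, and most of them hold part of the longest MTAP transcript, which ends at 21937650. Contacts of the p16INK4a promoter bin with the bins between MTAP and CDKN2A were higher in both RIS libraries, and those of the CDKN2A promoters with CDKN2B, and of both genes with the MTAP promoter, were lower. limma called none of these pairs at the adjusted threshold, and voom called part of them. On the log2 O/E scale, where the expected value came from all captured regions, p16INK4a with the bins between MTAP and CDKN2A had 0.36 and 0.42 in growing and 0.66 and 0.71 in RIS libraries. ARF with the same bins had 0.33 and 0.42 against 0.64 and 0.61. Both promoters of CDKN2A were thus higher over this stretch in both RIS libraries. p16INK4a with the CDKN2B bin went from -0.22 and -0.20 to -0.59 and -0.51, and ARF with the CDKN2B bin went from -1.31 and -1.31 to -1.62 and -1.74. CDKN2B with the 4 bins of CDKN2A went from -0.72 and -0.74 to -1.06 and -1.15. The promoters of these adjacent genes, which already met less often than average for their distance, had still lower values in both RIS libraries.

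**Figure D2:**
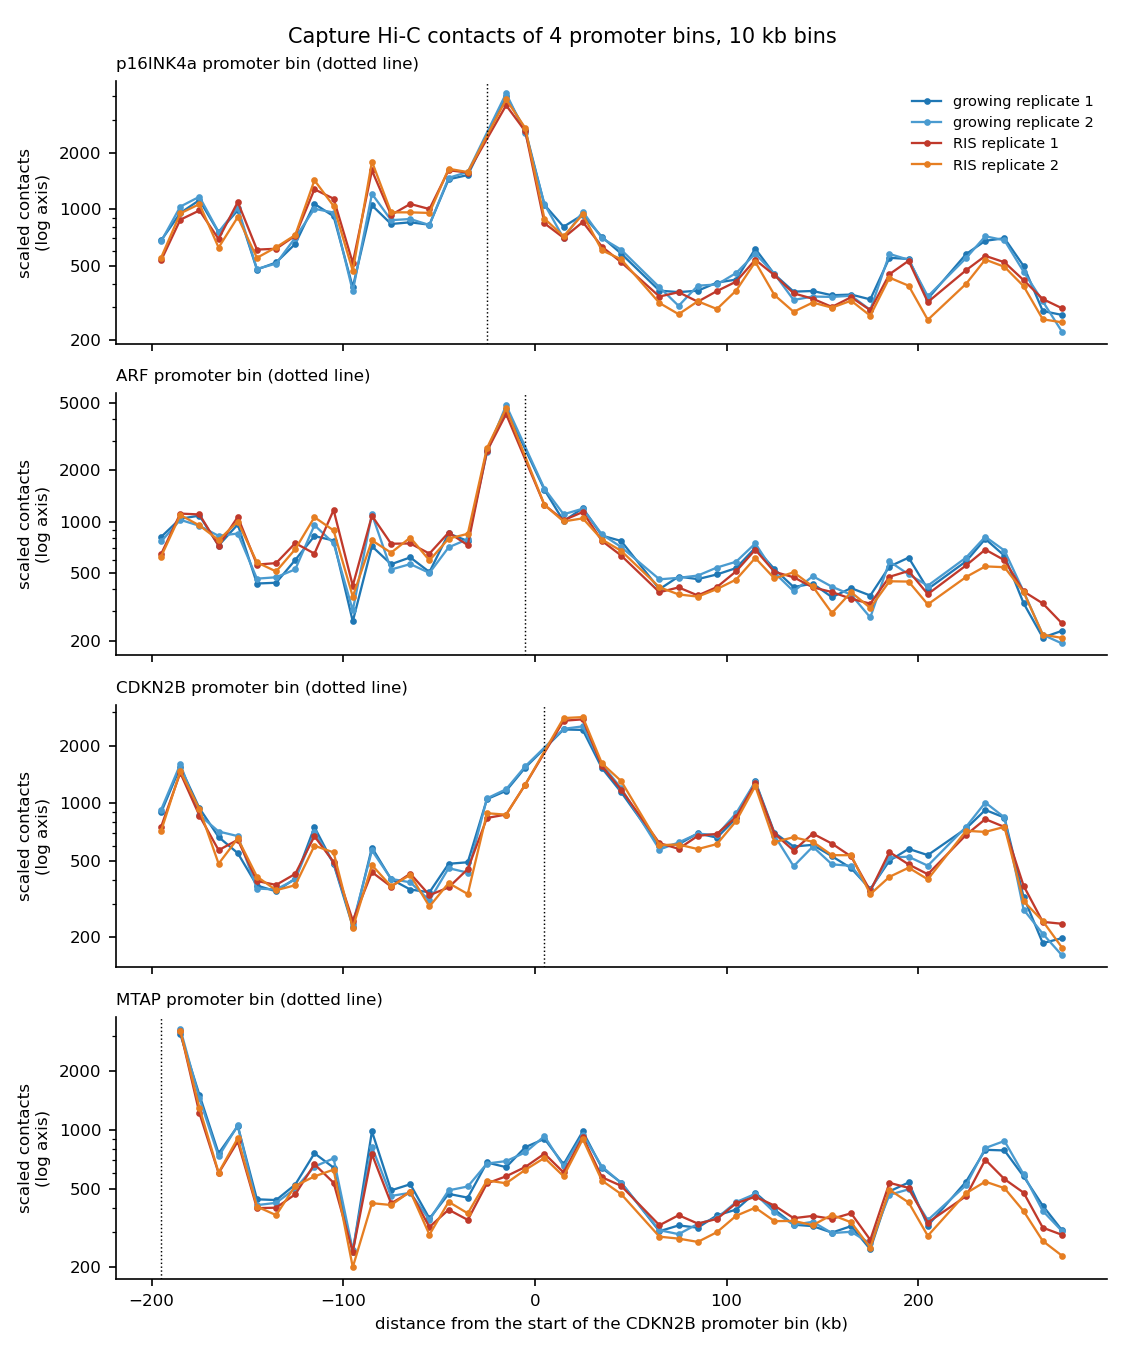
Capture Hi-C contacts of the promoter bins of p16INK4a, ARF, CDKN2B and MTAP (balanced contacts scaled to a common total within captured regions, log axis) against distance from the start of the CDKN2B promoter bin in kb, 1 line per library and a dotted line at the promoter. The 2 RIS lines (red and orange) lie above the 2 growing lines (blue) for p16INK4a at most bins between MTAP and CDKN2A, and below them for the MTAP promoter at the desert bins from 22230001 to 22250000.

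The MTAP promoter made a strong contact with CDKN2B that was lower in both RIS libraries. The MTAP promoter with the CDKN2B promoter had a log2 O/E of 2.04 and 2.10 in growing and 1.85 and 1.84 in RIS libraries, or 4.2 times the average for the distance in growing and 3.59 times in RIS cells. The CDKN2B promoter with all 7 MTAP bins had 1.65 and 1.70 against 1.61 and 1.66, and the p16INK4a promoter with them 1.39 and 1.44 against 1.37 and 1.40. In both of these blocks the groups overlapped. With recovered contacts they still overlapped for p16INK4a (a difference of 0.0054). CDKN2B then had 1.94 and 2.04 against 1.78 and 1.72, a difference of -0.24 with no overlap. ARF with the same bins had 1.582 and 1.551 against 1.682 and 1.675, higher in RIS with no overlap, but with recovered contacts the groups overlapped and the difference turned to -0.038. The CDKN2B promoter with the captured desert had 1.247 and 1.224 against 1.288 and 1.249, higher in RIS with a gap between the groups that was small, and the direction turned with recovered contacts to -0.11. Over 26 blocks of promoters and parts of the locus, 21 did not overlap between groups, 4 higher and 17 lower in RIS. Some of these blocks share pairs, so the count is not of independent blocks. Of single captured pairs in the genome 51.0% did not overlap, but most blocks are means over several bins. The share over like blocks was not computed, so the count is not read as an excess. With 2 libraries against 2 no two-sided exact permutation p can go below 0.333, so no block reached 0.05.

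The study lists 4 enhancers for CDKN2A or CDKN2B in its capture data, chosen on these same libraries, so their values are no independent evidence of a direction. They were placed here in 10 kb bins and were also compared with the MTAP promoter, for which none was taken from the list. The bins at chr9:22230001-22250000 in the desert had the highest log2 O/E of the 4 with every promoter, and the MTAP promoter had a log2 O/E of 3.04 and 3.14 with them in growing and 2.81 and 2.62 in RIS libraries. The p16INK4a promoter had 2.05 and 2.09 against 1.79 and 1.78, and the CDKN2B promoter 2.25 and 2.33 against 2.16 and 2.11. For all 3 promoters both RIS libraries were below both growing libraries. The CDKN2B promoter with the bin inside MTAP at chr9:21830001-21840000 had 1.389 and 1.498 against 1.206 and 1.029. Of 16 blocks of a promoter with a listed enhancer 13 did not overlap between groups, and all 13 were lower in RIS. The 51.0% above is for single captured pairs, and the share over like blocks was not computed.

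Pair by pair, limma on log2 balanced values called 0 of 1127 pairs of the captured locus, against 0.0334% of captured pairs in the genome, and 129 had an unadjusted p under 0.05. These pairs, and the 47 of each promoter, include those with the bins just outside both ends of the interval, which were only partly captured. voom on the recovered contacts called 205 (18.2%), against 12.6% of captured pairs. Of these 138 were lower in RIS, against 5.8% of captured pairs, and 67 were higher, against 6.77%. The split moved with single libraries, to 18 higher and 49 lower without growing replicate 1, 12 and 36 without growing replicate 2, 43 and 139 without RIS replicate 1 and 108 and 118 without RIS replicate 2. The MTAP promoter had 21 lower and 0 higher pairs of 47, the CDKN2B promoter 12 lower and 0 higher, ARF 7 lower and 2 higher, and p16INK4a 7 lower and 8 higher. All of these called pairs had the same sign in limma. The promoter bins share pairs with each other, so these counts are not independent. Each fit without 1 library left 1 library in a group. It covered all captured pairs, whose share under that setting is not given here. The counts without a library, above and below, are therefore not read as particular to this locus. Without growing replicate 1 or 2 voom called 67 and 48 pairs, all of them among the 205. Without RIS replicate 1 or 2 it called 182 and 226, of which 137 and 166 were among them.

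Called pairs of the p16INK4a promoter bin went both ways. Its 8 higher pairs all lay between chr9:21850001 and chr9:21950000, in the last part of MTAP and before CDKN2A. With the bin starting at 21910001 it had 75 and 74 contacts in growing and 73 and 74 in RIS libraries, which had less depth, a log2 change of 0.93 ± 0.21 (SE, voom adjusted p = 0.0017). With the bin starting at 21900001 it had 811 and 646 against 621 and 421, a change of 0.45 ± 0.10 (SE, voom adjusted p = 0.0011). Its 7 lower pairs lay with the MTAP start and the bin before it, within CDKN2A, with the CDKN2B promoter and farther into CDKN2B-AS1 and the desert. With the CDKN2B promoter it had 1592 and 1396 against 727 and 475, a change of -0.39 ± 0.090 (SE, voom adjusted p = 0.0018). Contacts of the whole CDKN2A segment with the 9 bins before it were called higher in 12 of 36 pairs and lower in 0. Their median was 0.27, whereas 3 of 4 of its pairs with the CDKN2B bin were lower, with a median of -0.46. Higher pairs were more numerous elsewhere in the captured locus. The rest of CDKN2B-AS1 with the captured desert had 24 higher and 15 lower of 154 pairs. The captured desert within itself had 18 higher and 8 lower of 91. The calls of the p16INK4a bin rested on both growing libraries: without growing replicate 1 it had 0 higher and 0 lower pairs, and without growing replicate 2 it had 1 higher and 2 lower. Likewise the 12 higher pairs of the CDKN2A segment came to 0 without growing replicate 1 and 1 without growing replicate 2, with medians of 0.22 and 0.27, and its 3 lower pairs with CDKN2B to 2 and 1. The pair with the bin at 21910001 also missed the threshold without RIS replicate 2 (0.64, voom adjusted p = 0.063). The median of all pairs was -0.05 for p16INK4a, -0.11 for ARF, -0.13 for CDKN2B and -0.25 for MTAP.

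Named pairs of the other promoters fell. ARF with the CDKN2B promoter had 906 and 818 contacts in growing and 397 and 230 in RIS libraries, a log2 change of -0.53 ± 0.11 (SE, voom adjusted p = 0.00043). CDKN2B with the bin in the body of CDKN2A at 21980001 had 3282 and 3055 against 1250 and 853, a change of -0.68 ± 0.078 (SE, voom adjusted p = 7.6e-09). CDKN2B with the MTAP promoter had 2148 and 1944 against 901 and 550, a change of -0.59 ± 0.086 (SE, voom adjusted p = 2e-06). In all 3 pairs both RIS libraries were lower on the scaled values too. The largest downward change of any pair of the 4 promoters was that of MTAP with the desert bin at 22240001, where 3032 and 2790 contacts stood against 1149 and 631 (-0.82 ± 0.085, SE, voom adjusted p = 5e-10). Without growing replicate 1 or 2 the lower pairs of ARF came to 3 and 1, of CDKN2B to 5 and 3 and of MTAP to 7 and 9. Of the 4 pairs named here ARF with CDKN2B missed the threshold without growing replicate 2 (-0.49, voom adjusted p = 0.057), and the other 3 passed without any 1 library. The same MTAP and desert regions had the lower contact in Hi-C at 40 kb under voom. The study calls the cHi-C libraries matched to the Hi-C libraries, so the assays are not known to be independent.

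**Figure D3:**
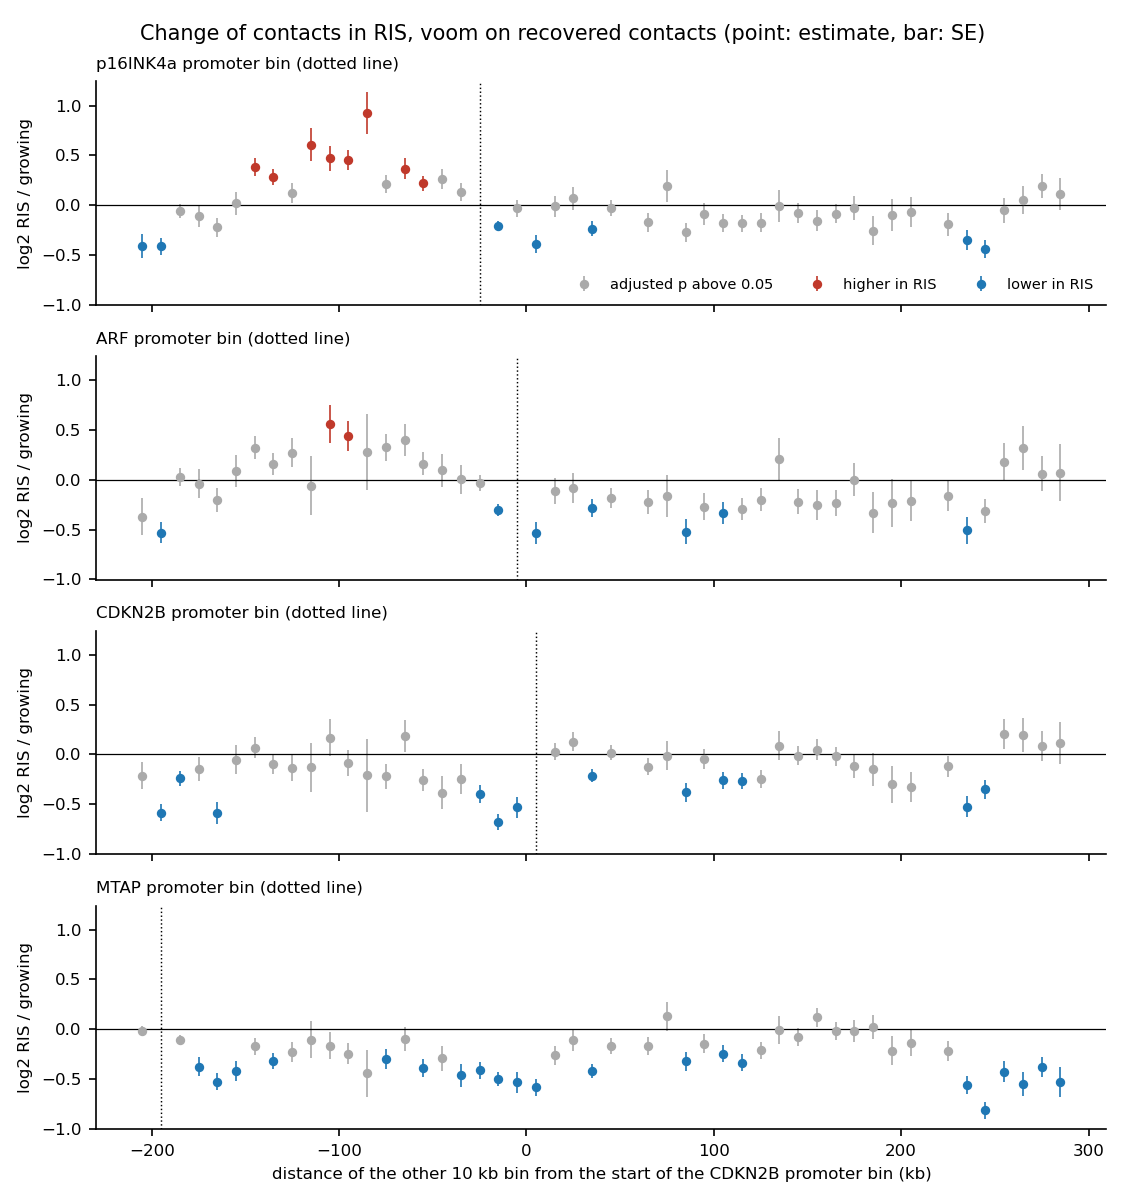
Change of capture Hi-C contacts in RIS against growing cells (log2, voom on recovered contacts, points with standard errors) for 4 promoter bins, against the distance in kb of the other 10 kb bin from the start of the CDKN2B promoter bin. Red points are higher and blue points lower in RIS at an adjusted p of 0.05: p16INK4a has 8 red and 7 blue, ARF 2 and 7, CDKN2B 0 and 12 and MTAP 0 and 21.

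The promoter bins also differed in their total contacts within the captured regions. Per 1000000 such contacts, the MTAP promoter bin had 715 and 727 in growing and 626 and 609 in RIS libraries, a log2 difference of -0.22. The CDKN2B promoter bin had 400 and 422 against 372 and 334 (-0.22), ARF 217 and 224 against 202 and 187 (-0.18), and p16INK4a 504 and 507 against 484 and 479 (-0.07). Every RIS library was below every growing library for all 4. The share of other captured bins without overlap was not computed, so this is not read as particular to these promoters. The whole captured locus also held less of the balanced signal in both RIS libraries. Its share was 0.965% and 0.975% in growing against 0.945% and 0.934% in RIS libraries. voom does not correct for the total of a bin, and the part of these totals in its calls was not tested. Where balanced values were used, which equalize the bins, the median change over the same pairs was -0.11 for p16INK4a, -0.06 for ARF, -0.05 for CDKN2B and -0.14 for MTAP. These promoter bins hold 3, 1, 2 and 4 HindIII sites for p16INK4a, ARF, CDKN2B and MTAP, the enzyme that cut the DNA, against a median of 3 over the 10 kb bins of chromosome 9.

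The insulation score asks how much contact crosses a bin, as the log2 mean contact between the 520 kb on its sides relative to the chromosome's mean, so that a border between domains is a local minimum. Over the CDKN2A bin it came to 0.17, 0.18 and 0.17 in growing against 0.18 and 0.09 in RIS libraries, a difference of -0.04 ± 0.036 (SE, limma adjusted p = 0.355). Over the CDKN2B bin it was 0.16, 0.17 and 0.17 against 0.16 and 0.07, a difference of -0.05 ± 0.035 (SE, limma adjusted p = 0.234). RIS replicate 2 was the lowest library in both bins, and without it the CDKN2A difference was 0.0047. With a 280 kb window the direction turned in both, to 0.047 at CDKN2A and 0.022 at CDKN2B. At the MTAP start the score was -0.47, -0.44 and -0.43 against -0.50 and -0.60, with no overlap, and its difference of -0.10 ± 0.039 missed the threshold (SE, limma adjusted p = 0.0528) but passed without RIS replicate 1, at -0.16 (adjusted p = 0.023). At DMRTA1 it was -0.84, -0.83 and -0.96 against -0.92 and -0.96, a difference of -0.06 ± 0.043 (SE, limma adjusted p = 0.235). The DMRTA1 difference passed without growing replicate 3, at -0.10 (adjusted p = 0.035), with a 280 kb window, at -0.12 (adjusted p = 0.039), and with a 1000 kb window, at -0.21 (adjusted p = 0.010).

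The insulation bins that passed the test lay on the flanks of the locus. Of the 49 bins 17 had a lower score in RIS, against 28.2% of all bins that were lower, and 0 were higher, and in the genome 53.1% of bins changed in either direction. The 17 form 2 runs, 5 upstream bins from chr9:21520001 to 21720000 and 12 distal desert bins from chr9:23000001 to 23480000, and 0 of the bins from MTAP to DMRTA1 were among them. The bin at 21520001, in MIR31HG, had -0.02, 0.05 and -0.01 in growing and -0.36 and -0.35 in RIS libraries, a difference of -0.36 ± 0.034 (SE, limma adjusted p = 0.00024). The distal desert bin at 23320001 had -0.03, -0.10 and -0.07 against -0.57 and -0.48, a difference of -0.45 ± 0.038 (SE, limma adjusted p = 0.00018). In both bins every RIS library was below every growing library, and the 12 distal bins had differences from -0.15 to -0.45. The share of contact within 2 Mb also fell in both bins. At 21520001 it was 65.9%, 66.4% and 65.0% in growing against 52.2% and 54.1% in RIS libraries. At 23320001 it was 61.5%, 57.3% and 54.8% against 43.7% and 47.4%. The median over all bins was 64.2% to 65.6% against 62.7% to 65.1%. The part of these shares in the scores was not tested.

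**Figure D4:**
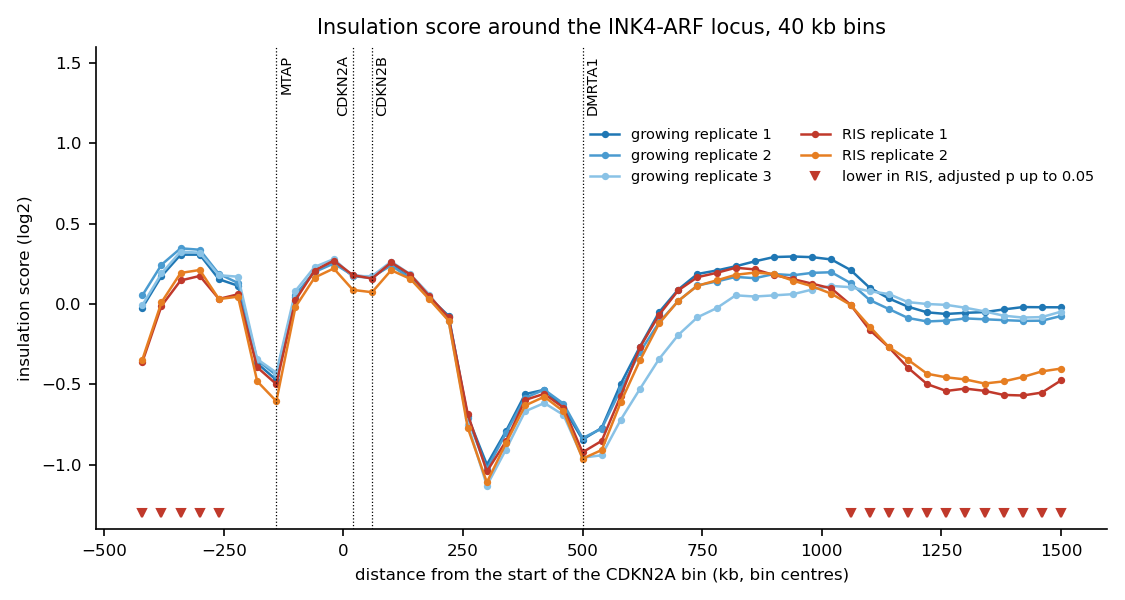
Insulation score (log2) of 40 kb bins against the distance of their centres from the start of the CDKN2A bin in kb, 1 line per Hi-C library, with dotted lines at MTAP, CDKN2A, CDKN2B and DMRTA1. Red triangles mark the 17 bins that were lower in RIS, 5 upstream of MTAP and 12 in the distal desert, where the RIS lines at the bin starting at 23320001 lie at -0.57 and -0.48 and the growing lines between -0.10 and -0.03.

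Borders, taken as minima with a prominence of at least 0.1, were found at 21800001 (the MTAP start), at 22240001 in the proximal desert and at 22440001 (DMRTA1) in all 5 libraries. The desert border was the deepest, with a prominence of 1.31, 1.37 and 1.46 in growing and 1.31 and 1.33 in RIS libraries. Its score differed by -0.02 ± 0.045 (SE, limma adjusted p = 0.680), but it was 0.33 higher in RIS with a 280 kb window (adjusted p = 0.00049) and 0.12 lower with a 1000 kb window (adjusted p = 0.034). The CDKN2A and CDKN2B genes sit in the interval between the MTAP and desert borders in both conditions. The CDKN2B bin was a shallow minimum in all 5 libraries, of 0.086, 0.072 and 0.091 in growing and 0.1003 and 0.137 in RIS libraries, which put it just outside the limit in growing and just inside it in RIS cells. A border in the distal desert had a prominence of 0.795 at 23360001 and 0.359 at 23280001 in RIS libraries. In growing replicates 1 and 2 a weak border, of 0.126 at 23200001 and 0.146 at 23160001, was the nearest, and growing replicate 3 had none there.

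Loop ends at domain borders are often bound by CTCF, and a form of its core motif, CCA, any 2 bases, AG, any 2 bases, then GGC, was searched for on both strands of the border bins. At least 1 match was held by 61.3% of the 40 kb bins of chromosome 9. The MTAP border bin (chr9:21800001-21840000) held 4 matches and the DMRTA1 border bin (chr9:22440001-22480000) held 4. They are printed from the hg19 reference, read 5′ to 3′ on the strand of the match, because these border bins hold the starts of MTAP and DMRTA1. The motif is in capitals, with 9 bases to each side. The matches at 21805320, 21830390, 22452602, 22453177 and 22455510 are on the minus strand, so their letters are the reverse complement of the reference there. The other printed matches are on the plus strand.
MTAP border match at chr9:21805320-21805331: aggattccaCCAGTAGATGGCtagatttga
MTAP border match at chr9:21813157-21813168: gctgtggagCCAGCAGGTGGCgacattggc
MTAP border match at chr9:21814039-21814050: aatatacctCCACAAGATGGCgccaacatc
MTAP border match at chr9:21830390-21830401: aaacacaatCCAGCAGGAGGCataggcact
DMRTA1 border match at chr9:22452602-22452613: cgatagtggCCAGGAGATGGCgcagtctta
DMRTA1 border match at chr9:22453177-22453188: tatcttttaCCACCAGTGGGCttccattta
DMRTA1 border match at chr9:22455510-22455521: gagagactgCCACGAGGGGGCaaagataat
DMRTA1 border match at chr9:22457627-22457638: atcaacctgCCACCAGGTGGCtggctggtt
The desert border bin held 0 matches, and the CDKN2B bin and the distal desert bin at 23320001 held 1 each. A match is a description of letters, and the study's CTCF ChIP-seq was not used here.

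Compartment scores place a region with gene-rich (positive) or gene-poor (negative) chromatin by its distance-corrected contacts along the chromosome, in 120 kb bins and in units of 1 SD per chromosome. The bin of CDKN2A and CDKN2B (chr9:21960001-22080000) scored 0.77, 0.68 and 0.80 in growing and 0.56 and 0.69 in RIS libraries. The groups overlapped, and the difference was -0.12 ± 0.068 (SE, limma adjusted p = 0.190). In bins of 80 kb and 200 kb, whose CDKN2A bin also holds part of the stretch before the gene and does not hold CDKN2B, it turned to 0.23 (limma adjusted p = 0.080) and 0.20 (0.0246). DMRTA1 lay on the gene-poor side in all libraries, with -1.52, -1.72 and -1.31 against -1.46 and -1.42. The step from the positive to the negative side fell within the proximal desert, between the bins at 22080001 and 22200001, in all 5 libraries.

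The 1 bin of the locus that rose was chr9:21840001-21960000, which holds the end of MTAP and the stretch before CDKN2A. It scored -0.12, -0.04 and -0.02 in growing and 0.43 and 0.45 in RIS libraries, a difference of 0.50 ± 0.058 (SE, limma adjusted p = 0.0014). All growing libraries were just below 0 and both RIS libraries were above it. This is the stretch whose contacts with the p16INK4a promoter were higher in cHi-C under voom. The bin before it, with the MTAP start, scored 0.41, 0.37 and 0.47 against 0.54 and 0.67 (0.19 ± 0.065, SE, limma adjusted p = 0.0544), and it passed without growing replicate 3 (0.22, adjusted p = 0.036) and in 200 kb bins, where it shares a bin with CDKN2A. In the distal desert the bin chr9:23160001-23280000 fell from -1.85, -1.72 and -1.81 to -1.99 and -1.98 (-0.19 ± 0.060, SE, limma adjusted p = 0.0409), and 6 of the alternatives lost this call, 3 of them by leaving out growing replicate 2 (adjusted p = 0.0996), RIS replicate 1 (0.184) or RIS replicate 2 (0.161). In all, 2 of 17 bins changed, against 37.9% of bins in the genome.

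**Figure D5:**
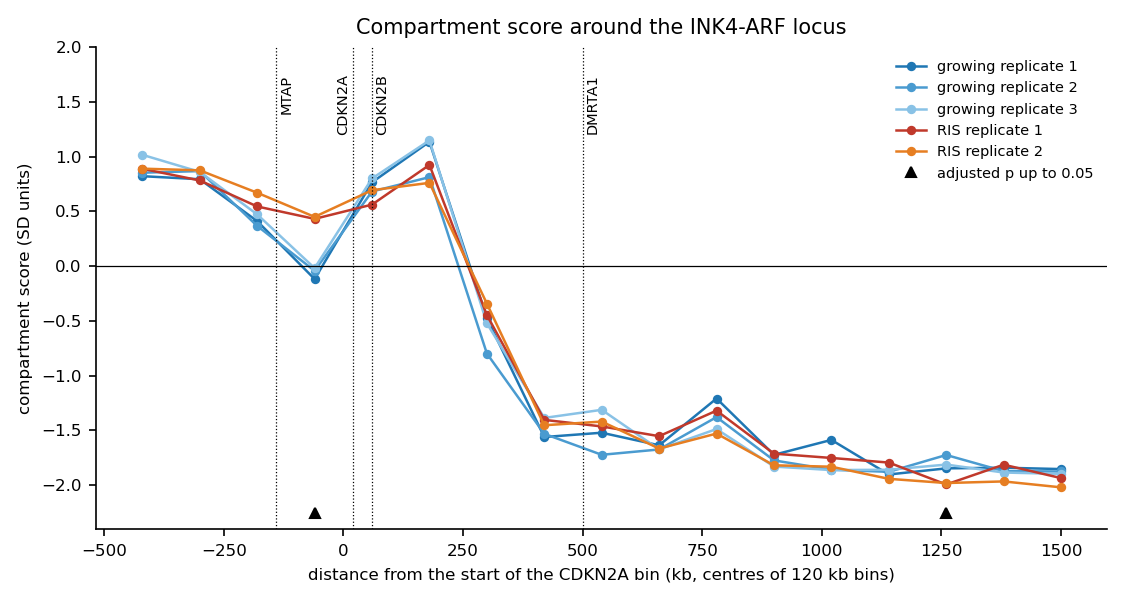
Compartment score (SD units, 120 kb bins) against the distance of the bin centres from the start of the CDKN2A bin in kb, 1 line per Hi-C library, with dotted lines at the 4 genes. Triangles mark the 2 bins past an adjusted p of 0.05, of which the bin before CDKN2A lies below 0 in the 3 growing and near 0.44 in the 2 RIS libraries.

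Beyond 2 Mb, the CDKN2A and CDKN2B bins contacted gene-rich (A) bins of chromosome 9 more than gene-poor (B) bins. Chromosome 9 had 1404 A and 1343 B bins, and those within 2 Mb of the gene's bin were left out. The log2 ratio of the mean O/E with A bins over that with B bins stood at 1.36, 1.06 and 1.23 in growing against 0.90 and 0.95 in RIS libraries. RIS libraries were lower, by 0.29 on average (1.21 ± 0.15, SD, n = 3, against 0.93 ± 0.036, SD, n = 2, exact permutation p = 0.2, where 0.1 is the smallest possible). With only the 20% of bins of the highest and lowest scores the direction turned to 0.12 (exact permutation p = 0.6), so no change could be stated.

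The chromosome 9 genes over 2 Mb away whose 120 kb O/E profile was most like that of the CDKN2A and CDKN2B bin were MAMDC2, SMC5 and APTX, with a mean Pearson r over the 5 libraries of 0.160, 0.157 and 0.155. DNAJA1 and SMU1 share the bin and the value of APTX. These correlations are over 928 bins of the same matrices, against a median of 0.043 over 729 genes, and they are weak. They are given as a description.

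The wider p16INK4a and ARF pathways were read from the same genome-wide fits, in the bins of the gene starts, with 31 genes from a list of CDK inhibitors, partners of RB, genes of the ARF and MDM2 branch and regulators of the locus. The insulation score was higher in RIS at 6 of them and lower at 5, a share below the 53.1% of all bins. A higher score means more contact across the bin, which is weaker insulation. Among those higher were RB1, the substrate of CDK4 and CDK6 (0.17), MDM2, the ligase bound by ARF (0.26), CCND2 (0.15), RBL1 (0.16), the Polycomb subunit EED (0.16) and the repressor TBX2 (0.13). Among those lower were CDKN2D, another INK4 gene (-0.32), E2F1 (-0.17), the Polycomb subunit SUZ12 (-0.14) and the H3K27 demethylase KDM6B (-0.14). The compartment score rose at CCND2, a D cyclin (0.27), RB1 (0.20) and its relative RBL2 (0.34), and fell at CDK4, the kinase that p16INK4a inhibits (-0.25), CCND3 (-0.26), RBL1 (-0.27) and E2F2 (-0.21), or 7 of 31 against 37.9% of all bins. Of the 4 genes of the locus 0 passed the test in either measure.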

How the data were processed

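The data are 5 Hi-C libraries (3 growing, 2 RIS) and 4 cHi-C libraries (2 and 2). The authors checked reads with FastQC and mapped them to hg19 with HiC-Pro. After removal of artefacts and duplicates they deposited, for each library on its own, a signal per pair of bins that had been balanced by ICE, at 40 kb for Hi-C and 10 kb for cHi-C. ICE equalizes the sums of bins, and each Hi-C library had also been brought to a total of 200000000 over both orientations. Other deposited columns hold the start, end and number of each bin.

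The 4 genes, the blocks, the enhancer bins and the pathway list were chosen with earlier results of these data known. A single factor per bin turned the balanced values into whole contacts (99.93% to 100.0% of small values within 0.05 of a whole number, by library), and these gave the depth. Values were scaled to a common total. Pairs up to 2 Mb apart with a mean of at least 5 were fitted with limma on log2(value + 0.5) after loess on abundance (span 0.3, 4 iterations), over all pairs of the genome or of all 61 captured regions, with Benjamini-Hochberg adjustment at 5%. A fold change on this scale understates that of low pairs. limma-voom on recovered contacts was an alternative. Blocks, insulation scores (520 kb window) and compartment scores (120 kb bins, 23 chromosomes) were fitted with limma over all positions or bins. The compartment score was the component, of the first 3, most correlated with gene density. For single values the groups were set against each other with exact permutation tests, two-sided. Alternatives covered scaling, pseudocount, minimum value, window, bin size, median blocks, recovered contacts, blocks for replicate number or duplicate rate, and each library left out in turn, where a group of 1 library was taken to vary like the other group. Genes named are the 4, every annotated gene with a symbol in the window, listed genes past a threshold and the 3 with the most similar profile. The fits were tested on simulated data. Of 200 pairs made 2-fold different among 20000, limma found 0 and voom 64 at 40 kb, and limma 0 and voom 134 in cHi-C, with no spread beyond counting error. With a dispersion of 0.02 limma again found 0 in both, and voom 31 and 82. With 200 bins shifted by 0.5, limma found 180 for insulation and 110 for compartments, and 0 for blocks of CDKN2A/B with the proximal desert. An uncalled pair under limma therefore says little about its size. In the data 19036 of 68974 positions of that block layout passed, which makes the adjusted threshold less strict than in the simulation. The simulation thus does not show what size of block difference would pass. Genes came from GENCODE v44lift37 and sequence from the hg19 reference, whose chromosome lengths matched those of the bins on 23 of 23 chromosomes. Software was Python 3.11.15 with numpy 2.4.6, pandas 2.3.3 and scipy 1.17.1, and R 4.3.3 with limma 3.58.1. A gene of the pathway list is counted but not reported here by name.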

Additional observations from a re-analysis of the deposited data

How the results depend on the processing

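Of the results for single blocks, bins and promoters, 394 values under an alternative kept their direction and call or stayed within the spread, 61 moved, 13 passed the threshold newly, 6 no longer passed and 21 turned direction. Pairs of the window at 40 kb went from 0 called by limma to 10 with voom (2, 5, 10, 1 and 0 with each library left out), and captured pairs from 0 to 205 (67, 48, 182 and 226). The alternatives that leave a library out of voom were added after seeing the data. Blocks went from 0 called to 1 with the replicate block and 2 with the median over the block (0 to 1 with a library left out). Insulation bins went from 17 to 29 with a 1000 kb window (17 to 21). Compartment bins went from 2 to 4 with the replicate block and 1 with the duplicate class as a block (1 to 3). The ratio of distant contacts turned to 0.12 with 20% of bins (-0.37 to -0.22 with a library left out), and non-overlapping captured blocks went from 34 to 36 to 40. With recovered contacts CDKN2A/B with MTAP turned to -0.033, CDKN2A/B with the proximal desert to -0.017, the MTAP to DMRTA1 interval to -0.041, ARF with MTAP to -0.038 and CDKN2B with the captured desert to -0.11. The last was -0.031 without an expected value, and p16INK4a with ARF 0.032. With the median over the block MTAP with the proximal desert turned to 0.13, DMRTA1 with it to -0.025 and the interval to -0.030. With a 280 kb window insulation turned to 0.047 at CDKN2A, 0.022 at CDKN2B and 0.33 at the desert border. Compartment scores turned to 0.23 (80 kb) and 0.20 (200 kb) in the bin of CDKN2A, which at these sizes does not hold CDKN2B, and -0.010 (200 kb) at DMRTA1. With each library left out in turn, CDKN2A with CDKN2B lay between -0.22 and 0.011, insulation at CDKN2A between -0.087 and 0.0047 (each highest without RIS replicate 2), insulation at the desert border between -0.062 and 0.010 (above 0 without growing replicate 1 or RIS replicate 2), and the DMRTA1 compartment between -0.025 (without growing replicate 2) and 0.18. The causes were not tested.

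Replicate numbers share only a number. Deviations of growing and RIS replicates with the same number had a correlation over insulation bins of 0.106 for number 1 and -0.204 for number 2. Over captured pairs it was 0.006. In a group of 2 libraries the deviations mirror each other, so the captured value is the same for both numbers. These correlations cannot decide whether the replicates were paired. With the replicate number as a block, which gives the paired counts above, the distal desert within itself (-0.12, adjusted p = 0.0019), DMRTA1 insulation (-0.10, adjusted p = 0.048) and the MTAP start compartment (0.22, adjusted p = 0.021) also passed. The contacts of DMRTA1 with CDKN2A and CDKN2B rest on 25 to 42 ligation products per library, so their values carry a large counting error, and the part of depth in this was not tested.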
